A study of Homo sapiens with 18 samples.

Results

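Gene expression one day after a brief cocaine exposure was examined by comparing the 3 arrays of cells given 5 µM cocaine with the 3 arrays of untreated cells (0 µM), all harvested at 24 h. These were 6 of the 18 arrays of the series, chosen by dose and harvest time as their titles give them. All groups were SH-SY5Y cells, a human neuroblastoma line that extends neurites when treated with retinoic acid. They had been differentiated with 10 µM retinoic acid for 7 days and then kept without it for 24 h. The treated dishes received cocaine for 30 min, untreated dishes had the same changes of medium, and each array carried RNA pooled from 3 of the 9 dishes of a condition. The 3 arrays of 1 µM cocaine at 24 h entered the fit, and the arrays of 6 h served for comparison. All dishes came from 1 cell line, and nothing in the sources states that the pools came from separate cultures, so p-values measure the spread between these pools.

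Cocaine blocks the transporters that return dopamine, noradrenaline and serotonin to the nerve terminal. In neurons, stimulation first induces immediate early genes such as FOS, and their products then act on slower genes for synapses, cytoskeleton and signalling. Expression a day after a short exposure therefore addresses what remains or appears late. Each value below is the log2 signal of a probe set, the group of short probes that reads one stretch of a transcript. A difference of 1 on this scale is a doubling, and many genes have several probe sets. A call required an adjusted p under 0.10 in limma, over 24313 probe sets with a gene symbol and a mean above 40 signal units (5.32 on the log2 scale).

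The cells carried the marks of sympathetic neuroblasts. Of 10 adrenergic markers, 9 had a named probe set and 8 lay above the signal filter, among them PHOX2A, GATA3 and ISL1. The mean of all 9, with TH below the filter included, was 10.1 on every untreated array and 10.1 to 10.2 at 5 µM. Of 6 markers of dopamine neurons, 2 lay above the filter. DDC, the enzyme that makes dopamine from its precursor, averaged 11.63 in untreated cells and 11.71 at 5 µM. TH, which makes the dopamine precursor, read 3.78, 3.91 and 3.94 in untreated cells and 3.91, 3.91 and 4.0 at 5 µM, all below the filter. The dopamine transporter gene SLC6A3 averaged 5.94 and 5.98, and SLC18A2, for the vesicular monoamine transporter, lay below the filter. Of 8 mesenchymal markers, 5 lay above the filter, among them FN1 (means of 11.21 untreated and 11.22 at 5 µM), COL3A1 (10.87 and 10.73) and SNAI2 (9.69 and 9.53), and the mean of all 8 ran from 7.53 to 8.0 in untreated cells and from 7.54 to 8.03 at 5 µM. Schwann and glial markers averaged 4.70 to 4.90 and 4.76 to 4.87, with 1 of the 4 found above the filter.

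At 24 h, 4 genes of the retinoic acid response read highest on untreated array 3 among the 6 arrays. CYP26A1, which breaks down retinoic acid, read 5.40, 6.04 and 9.55 in untreated arrays 1 to 3 and 4.92, 4.96 and 6.31 at 5 µM. CYP26B1, a related enzyme, read 8.35, 9.02 and 11.03 against 8.24, 8.42 and 8.70, and DHRS3, which reduces retinaldehyde, read 7.96, 9.01 and 10.23 against 7.65, 7.97 and 9.18. For RARB, a retinoic acid receptor, the brightest probe set gave 8.92, 9.26 and 9.66 against 8.67, 8.92 and 9.14. In all 4 genes untreated array 3 held the highest of the 6 values, while the groups overlapped. The 1 µM arrays averaged 5.38 in CYP26A1, 8.45 in CYP26B1 and 8.25 in DHRS3. At 5 µM these means were 5.40, 8.45 and 8.27, so the lower signal was not particular to 5 µM. Of 26 retinoid genes measured, 5 were lower at 5 µM and 0 higher at an unadjusted p under 0.05, and the median log2 fold change was -0.08. Over all genes measured, 5.37% were lower and 8.92% higher in the same count. Without the pairing of arrays by replicate number, 1 of the 26 was lower and 0 higher. Without untreated array 3 the numbers were 3 lower and 0 higher, with a median of -0.04. For 1 µM against all untreated arrays the median of the retinoid genes was -0.09. The one of these genes that passed under the alternative settings described further on was TGM2, for a transglutaminase, at 7.82, 7.93 and 7.85 untreated and 7.62, 7.58 and 7.20 at 5 µM. At 6 h the pattern was wider, with CYP26A1 at 5.01, 10.69 and 10.99 in untreated cells and 5.20 to 5.53 at 5 µM. The part of retinoic acid in the results that follow was not tested beyond leaving out untreated array 3.

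Retinoic acid receptors bind paired sites with the pattern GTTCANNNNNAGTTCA, in which any 5 bases separate the repeats. The promoter windows of RARB and CYP26A1 both hold it. Only these genes were chosen for display, so nothing is said on the windows of CYP26B1 and DHRS3. A part of the site in the values of untreated array 3 was not tested. The sequences are from RefSeq, build GRCh38.p14, plus strand, with the 16-base match in capitals and 7 bases on each side. The RARB stretch is chr3:25428204-25428233 and the CYP26A1 stretch is chr10:93073796-93073825, where the match runs on the strand opposite to the gene.
RARB: gggtaggGTTCACCGAAAGTTCActcgcat
CYP26A1: ttaaagaTGAACTTTGGGTGAACtaattgt
The pattern, searched on both strands, occurred in 12 of 35116 promoter windows of 250 bases before to 50 after a start site (0.0342%). A match describes letters and not binding.

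**Figure D1:**
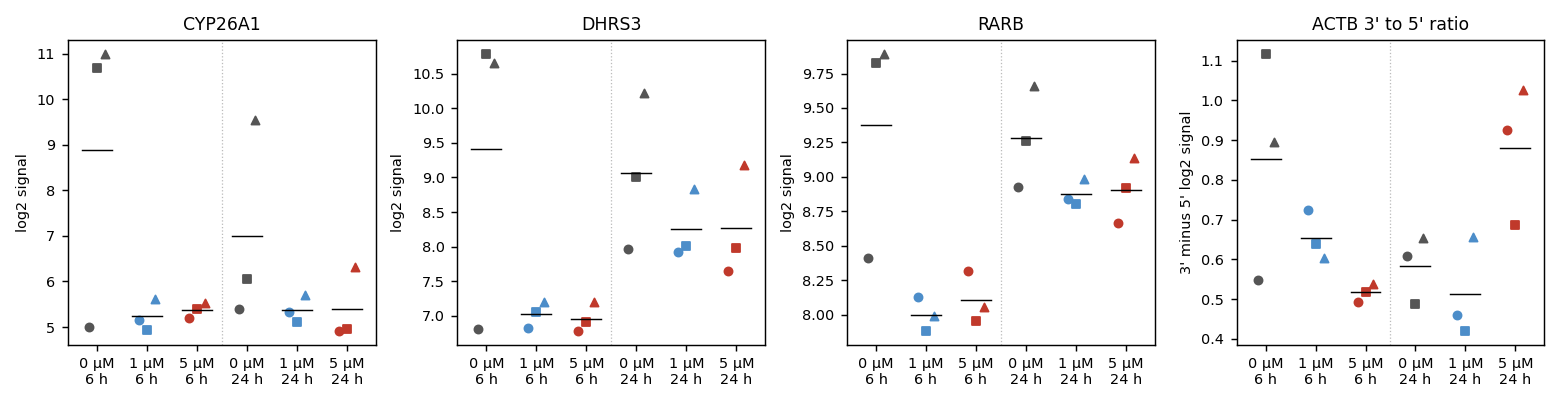
Log2 signal of CYP26A1, DHRS3 and the brightest RARB probe set, and the ACTB 3' to 5' difference, on all 18 arrays by dose and harvest time. Circles, squares and triangles are replicates 1, 2 and 3 and the bars are group means of 3 arrays. At 24 h untreated array 3 lies highest in CYP26A1 (9.55), and the ACTB difference is higher in all 3 arrays of 5 µM (0.69 to 1.03) than in the untreated ones (0.49 to 0.65).

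RNA and hybridization measures also differed between the groups. The log2 signal of the ACTB 3' probe set minus that of its 5' probe set, which grows as reads of the 5' end are lost, was 0.61, 0.49 and 0.65 in untreated cells and 0.93, 0.69 and 1.03 at 5 µM (exact permutation p = 0.1, 2-sided, the smallest that 3 against 3 arrays allow). At 6 h the order was opposite, with 0.55, 1.12 and 0.89 untreated and 0.49, 0.52 and 0.54 at 5 µM. The GAPDH difference overlapped at 24 h (0.18 to 0.20 untreated, 0.18 to 0.22 at 5 µM). The spiked-in controls bioB and bioC, relative to cre, were higher at 5 µM by 0.13 each without overlap, again at an exact permutation p of 0.1. The third, bioD, was higher by 0.058 with overlapping groups (exact permutation p = 0.3). At 6 h bioD relative to cre ran from -1.359 to -1.265 untreated and from -1.857 to -1.73 at 5 µM. That difference of -0.495 was without overlap (exact permutation p = 0.1), and the 1 µM arrays lay at -1.784 to -1.764. For bioB and bioC the groups overlapped at 6 h. Over 6156 genes with several probe sets, the dimmer ones lay below the brightest by more at 5 µM than in untreated cells, by a mean of 0.015 at 24 h. At 6 h the difference was 0.07 in the opposite direction. The groups did not overlap at either time, and p was 0.1 at both (exact permutation test). The part of these measures in the gene results was not tested.

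At 24 h, 2 of 24313 probe sets passed (0.00823%), both for SCAMP1 and both lower at 5 µM, and 0 were higher. SCAMP1 encodes a secretory carrier membrane protein of recycling and secretory vesicles. Without the pairing of arrays by replicate number, 3 probe sets passed (0.0123%), again all for SCAMP1 and all lower. In probe set 1552978_a_at the untreated arrays read 8.36, 8.34 and 8.39, the 1 µM arrays 8.46, 8.36 and 8.39, and the 5 µM arrays 7.62, 7.55 and 7.74. Every array of 5 µM lay below every untreated one, and the difference was -0.73 (95% interval -0.85 to -0.60, adjusted p = 0.037). In 212417_at the values were 9.70, 9.59 and 9.66 untreated, 9.52, 9.45 and 9.53 at 1 µM and 9.11, 8.96 and 9.15 at 5 µM, a fall of 0.58 on the log2 scale (interval -0.69 to -0.47, adjusted p = 0.037).

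Of the other 4 SCAMP1 probe sets, 2 lay lower by a similar amount. 206667_s_at read 7.44, 7.26 and 7.22 untreated and 6.40, 6.31 and 6.63 at 5 µM, a difference of -0.86 with adjusted p = 0.14 paired and 0.093 without pairing. 206668_s_at read 7.43, 7.39 and 7.53 against 6.76, 6.52 and 6.97, a difference of -0.70 with adjusted p = 0.14. The groups did not overlap in either. The brightest probe set, 212416_at, read 10.86, 10.91 and 10.97 untreated and 10.89, 10.89 and 10.86 at 5 µM, a difference of -0.04 (interval -0.14 to 0.07). 212425_at differed by +0.07 (interval -0.08 to 0.22). The 6 probe sets of this gene thus disagreed, and the difference was found in 4 of 6. In a fit of the 6 arrays alone, without those of 1 µM, 0 probe sets passed and the adjusted p of both was 0.296. Leaving out 1 array at a time gave 29 calls without untreated array 1, 2 without array 3 of 5 µM and 0 without any other array, while the difference of 1552978_a_at stayed between -0.78 and -0.70 in all 9 of them.

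Against 1 µM, 5 µM gave 1 call, SCAMP1 1552978_a_at, with a log2 difference of -0.77 (adjusted p = 0.029). At 6 h the same 4 SCAMP1 probe sets lay higher at 5 µM, and 3 of them were called there. In 1552978_a_at the 6 h arrays read 7.52, 7.36 and 7.73 untreated and 8.31, 8.32 and 8.11 at 5 µM, and in 206667_s_at 6.50, 6.20 and 6.45 against 7.20, 7.21 and 7.07. The 24 h effect minus the 6 h effect was -1.44 in the former (adjusted p = 0.0012) and -1.64 in the latter (adjusted p = 0.0028). Signals of 6 h and 24 h were normalised separately, so only differences within a time were set against each other.

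**Figure D2:**
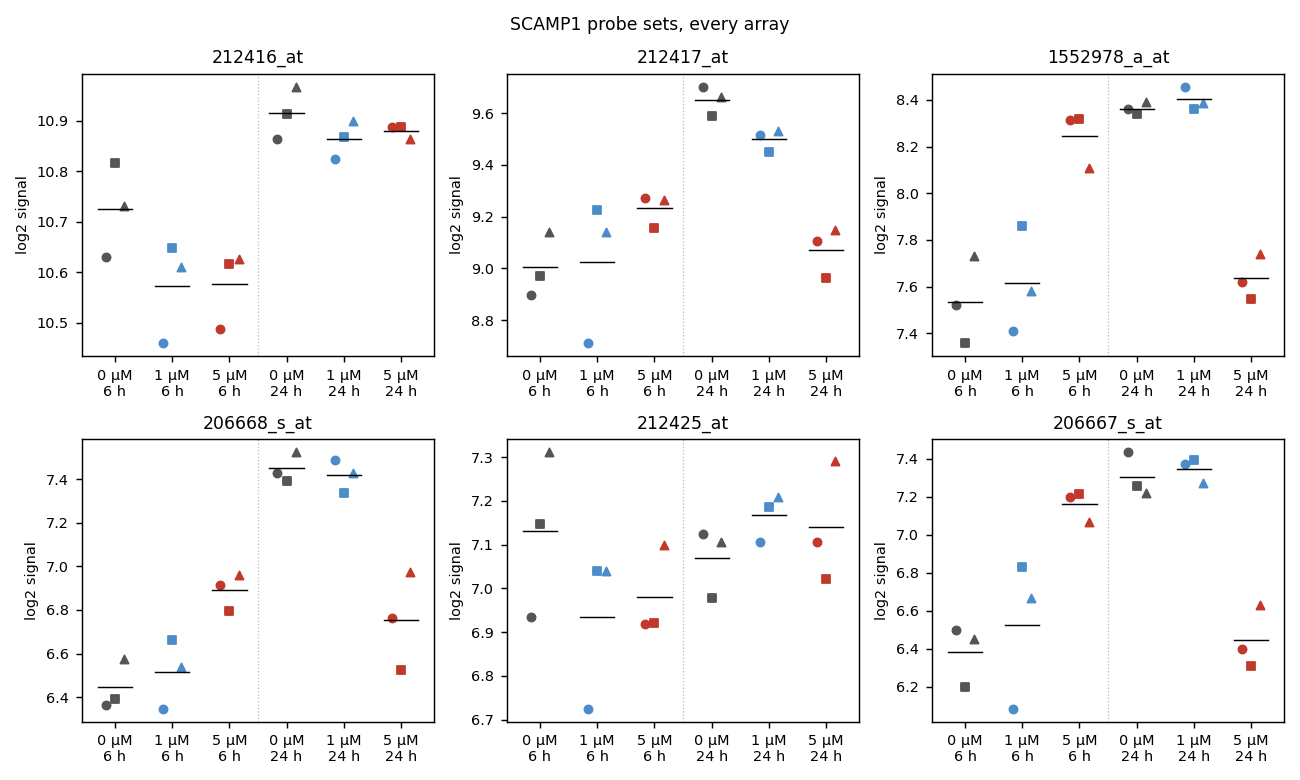
Log2 signal of the 6 SCAMP1 probe sets on every array, ordered from the brightest, by dose and harvest time. Circles, squares and triangles are replicates 1, 2 and 3 and bars are means of 3 arrays. In 4 probe sets the 5 µM arrays lie below the untreated ones at 24 h and above them at 6 h, while 212416_at and 212425_at differ by -0.04 and +0.07 at 24 h.

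Most changes elsewhere were small. Larger differences, with overlapping groups and no call, included those of CYP26A1 (-1.6), CYP26B1 (-1.01) and DHRS3 (-0.80). The difference was under 0.2 in size in 90.2% of probe sets and under 0.5 in 99.7%, and the 95% interval of a probe set reached a median of 0.15 to either side. At an unadjusted p under 0.05, 2120 probe sets were higher and 1650 lower. Counting each of 12719 genes once, at its brightest probe set, 1134 were higher (8.92%) and 683 lower (5.37%). Without pairing, 1024 probe sets were higher and 727 lower, and by gene the shares were 4.31% and 1.97%. At 1 µM against the same untreated arrays, 0 probe sets passed in limma, with 2124 at an unadjusted p under 0.05.

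The number of calls differed strongly between settings, and the cause was not tested. A stricter signal filter of 100 units gave 439 calls among 17571 probe sets, a spread that depends on signal gave 514, and weights for each array gave 328. Under all 3 of these settings 219 probe sets passed, 137 higher and 82 lower at 5 µM. They stood for 132 genes with a higher probe set (1.04% of genes measured) and 68 with a lower one (0.535%). In 189 of the 219 the 3 arrays of 5 µM did not overlap the untreated ones. The 219 were kept for small p-values in these same arrays, so this separation is no further support. Over all 24313 probe sets, the groups were apart in 1444 higher and 1096 lower ones. Without pairing, the stricter filter and the signal-dependent spread gave 4 calls each, and without untreated array 2 they gave 0 each. Without untreated array 3 they gave 2 each. Without untreated array 1 they gave 802 and 1060, and without array 2 of 5 µM 265 and 404. Leaving out array 1 or 3 of 5 µM gave 2 to 24, and leaving out a 1 µM array 2 to 448. Apart from the mitochondrial genes, the genes of the next paragraphs come from these 219, were picked after their values were seen, and did not pass in the fit reported first.

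Of 96 splicing factor genes measured, 1 had a probe set among the lower 82, SF3B1, beside 0.535% of all genes. Among the higher 137, 4 had one, beside 1.04% of all genes. These differed by 0.30 for HNRNPL, 0.33 for HNRNPUL1, 0.36 for SF3A1 and 0.21 for SNRNP70. SF3B1, a core part of the U2 spliceosome particle, read 9.77, 9.83 and 9.87 untreated, 9.50, 9.50 and 9.47 at 1 µM and 9.34, 9.34 and 9.16 at 5 µM in 214305_s_at (difference -0.54). TIA1, an RNA-binding protein of stress granules, read 9.91, 10.24 and 10.07 against 9.61, 9.74 and 9.56 in 201446_s_at (difference -0.44). SMAD5, a transducer of bone morphogenetic protein signals, read 7.86, 7.82 and 7.59 against 7.05, 7.34 and 7.17 in 205187_at (difference -0.57). In none of the 3 did the groups overlap. IL6ST, the shared signal chain of interleukin-6 family receptors, read 8.93, 9.10 and 8.85 against 8.44, 8.36 and 8.06 in 204863_s_at, and HSP90B1, a chaperone of the endoplasmic reticulum, 7.92, 7.88 and 7.84 against 7.41, 7.49 and 7.32 in 216450_x_at. Their differences were -0.67 and -0.48. Of 64 genes of neurite cytoskeleton, 3 had a lower probe set and 1, CYFIP2, a higher one, beside 0.535% and 1.04% of all genes. WASL, which drives actin branching, differed by -0.60 in 205809_s_at, CALD1, an actin-binding protein, by -0.76 in 201615_x_at, and CDC42, a small GTPase, by -0.27 in 208727_s_at. The higher CYFIP2 differed by +0.25.

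In 6 of these 8 lower genes the brightest probe set differed by less than 0.1 in size. The brightest for SF3B1 differed by -0.01 (interval -0.14 to 0.12), for SMAD5 by 0.00 (interval -0.12 to 0.12), for TIA1 by -0.06, for WASL by +0.07, for CDC42 by +0.04 and for CALD1 by -0.01, although 5 of the 8 CALD1 probe sets were lower at an unadjusted p under 0.05. HSP90B1 was lower at that threshold in 2 of 2 probe sets, the brightest at -0.19. IL6ST lay below 0 in 4 of 4 and was lower at that threshold in 3, with the brightest at -0.14. Of the 82 lower probe sets, 58 were dimmer ones of a gene with several and 22 were the brightest or only one. Of the 137 higher ones, 67 were dimmer and 69 the brightest or only one. Over all 24313 probe sets, 10496 were dimmer ones. The positions of the probe sets within the transcripts were not used here.

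**Figure D3:**
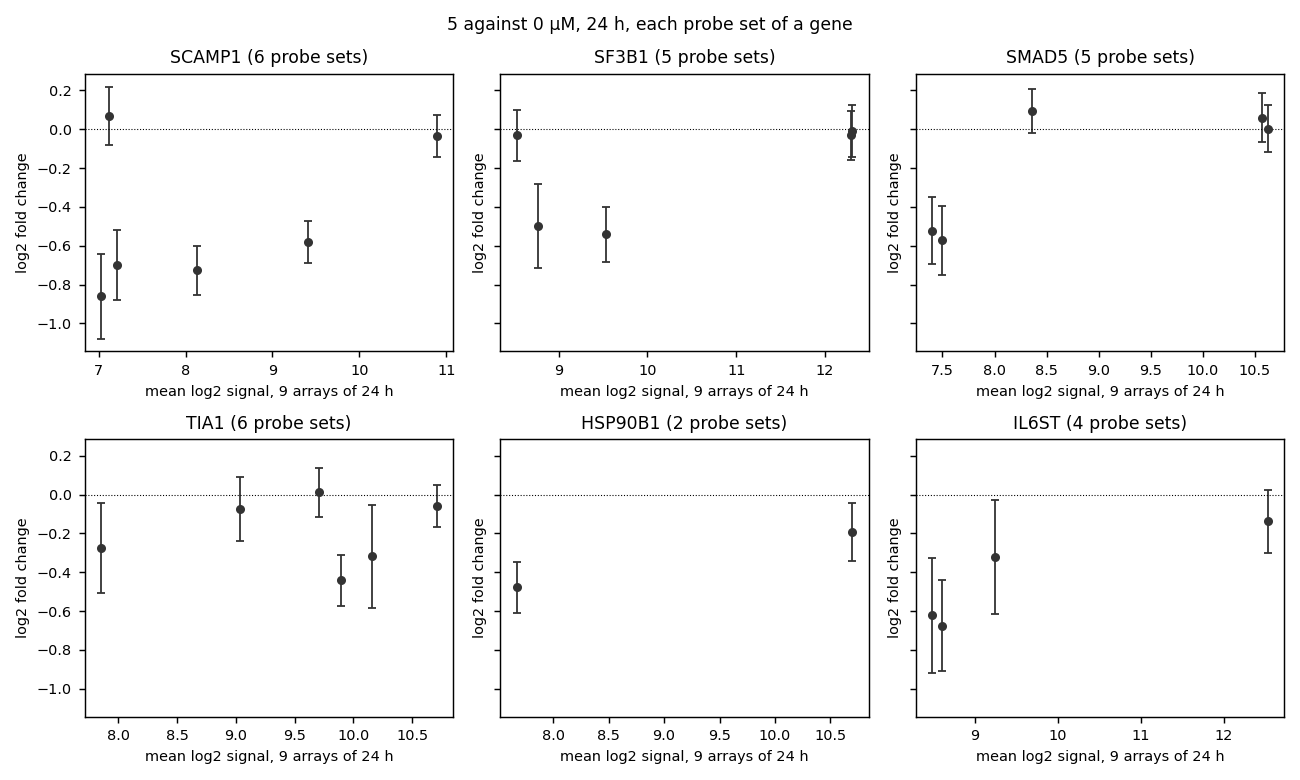
Log2 fold change of 5 against 0 µM at 24 h, with the 95% interval from limma, for each probe set of 6 genes against its mean log2 signal over the 9 arrays of 24 h. The dotted line marks no difference. The brightest probe sets of SCAMP1, SF3B1, SMAD5 and TIA1 lie at -0.04, -0.01, 0.00 and -0.06, and dimmer ones reach -0.86, -0.54, -0.57 and -0.44.

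MALAT1, a long RNA kept in nuclear speckles, had a difference below 0 in all 12 of its probe sets, from -0.90 to -0.18, and 9 of them were lower at an unadjusted p under 0.05. In the most shifted, 224559_at, untreated arrays read 9.26, 9.58 and 8.61 and the 5 µM arrays 8.17, 8.82 and 7.76, a difference of -0.90 (interval -1.19 to -0.60, adjusted p = 0.14). The brightest read 13.02, 13.77 and 13.53 against 12.63, 13.51 and 13.09. The groups overlapped in every MALAT1 probe set. Transcripts of the mitochondrial genome also lay lower, in all 7 measured genes, with a median of -0.28 and 3 at an unadjusted p under 0.05, against 5.37% of all genes. Without pairing 0 of the 7 passed that threshold, and without untreated array 3, 1 did. COX1, a subunit of cytochrome oxidase, read 13.35, 13.63 and 13.52 untreated and 12.84, 13.60 and 13.13 at 5 µM. By pairs the list's median was -0.40, -0.02 and -0.23, with pair 2 close to 0. Nuclear genes of the respiratory chain had a median of -0.02 over 67 genes, with 2 higher and 2 lower.

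Of the gene lists, neurosecretion had 1 of 34 members with one of the 137 higher probe sets, SV2C, and chromatin remodellers 1 of 58, SMARCA4. Histone and DNA modifiers had 2 of 83, HDAC5 and KAT6A, and the share of all genes was 1.04%. The genes RIMS4, FSCN1, UBA1, CBX5 and EPC1, given below, belong to none of the lists. RIMS4, of the family that organises the presynaptic active zone, read 7.46, 7.34 and 7.36 untreated, 7.51, 7.48 and 7.39 at 1 µM and 7.96, 7.74 and 7.74 at 5 µM in its brightest probe set (difference 0.42, interval 0.30 to 0.55). FSCN1, which bundles actin in growth cones, read 10.04, 9.94 and 9.94 against 10.36, 10.33 and 10.27 (difference 0.35). UBA1, the main ubiquitin-activating enzyme, read 8.78, 8.88 and 8.80 against 9.27, 9.19 and 9.08 (difference 0.36). In these 3 genes the brightest or only probe set separated the groups. HDAC5, a histone deacetylase that shuttles out of the nucleus on neuronal activity, read 7.38, 7.43 and 7.38 against 7.64, 7.65 and 7.62, a small but even difference of 0.24. CBX5, a heterochromatin protein, differed by 0.36 in 212126_at and by 0.05 in its brightest probe set. EPC1, a subunit of a histone acetyltransferase complex, differed by 0.49 in 223875_s_at and by -0.04 in its brightest. DBH, which turns dopamine into noradrenaline, read 9.55, 9.10 and 9.06 untreated, 9.53, 9.24 and 9.33 at 1 µM and 9.82, 9.35 and 9.51 at 5 µM. Its difference was 0.32 (interval 0.17 to 0.47, adjusted p = 0.16), higher in 3 of 3 pairs while the groups overlapped.

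The 6 h and 24 h effects ran in opposite directions in many of these probe sets. Of the 82 lower at 24 h under the 3 settings, 53 had been called higher at 6 h and 2 lower. Over the 22364 probe sets kept at both times, 7.72% were called higher at 6 h and 10.9% lower. Of the 137 higher at 24 h, 36 had been called lower at 6 h and 1 higher. Taken the other way, 1726 of the probe sets called higher at 6 h were measured at 24 h, and 349 of them were lower at an unadjusted p under 0.05 (20.2%, against 6.82% of all kept at both times) and 87 higher (5.04%, against 9.08%). Their median at 24 h was -0.04. Of 2438 called lower at 6 h, 167 were lower at 24 h (6.85%) and 293 higher (12%), with a median of -0.01. Without untreated array 3 the former set had 13.6% lower, against 4.80% of all. Where the 6 h calls were made without pairing, 136 of 349 higher ones were lower at 24 h (39.0%), with a median of -0.13.

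The shares differed by kind of probe set, a difference that was not tested. Of those called higher at 6 h, 285 of 1154 dimmer probe sets were lower at 24 h at an unadjusted p under 0.05 (24.7%), against 34 of 247 that were the brightest of several (13.8%) and 15 of 245 that were a gene's only one (6.12%). The ACTB 3' to 5' difference and the dimmer-to-brightest difference given above also turned direction between the times. The test of the 24 h effect minus the 6 h effect called 1476 of 23277 probe sets lower at 24 h (6.34%) and 2059 higher (8.85%). The largest shifts down were in MALAT1 (-1.97 in 223578_x_at), the RNA helicase gene DDX17 (-1.95 in 230180_at), the splicing factor gene SF1 (-1.76), the nuclear pore gene TPR (-1.66), HSP90B1 (-1.59) and LARS1, for leucyl-tRNA synthetase (-1.57). Brightest probe sets differed less at 24 h. With 1 array left out at a time, they ran from 0.005 to 0.063 in DDX17 and from 0.118 to 0.183 in SF1. They ran from -0.371 to -0.105 in TPR and from -0.083 to -0.026 in LARS1. The largest shifts up were in CLMN (1.20), ELFN1 (1.12), PTPRH (1.01), TLE3 (0.87), FAM222A (0.84) and CNNM2 (0.82). In the latter 6 genes the 24 h effect in the same probe set was between -0.12 and 0.20, so most of the shift lay in the 6 h effect. In CLMN's brightest probe set the untreated arrays of 6 h read 7.16, 9.85 and 9.97, high on arrays 2 and 3 as in CYP26A1.

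**Figure D4:**
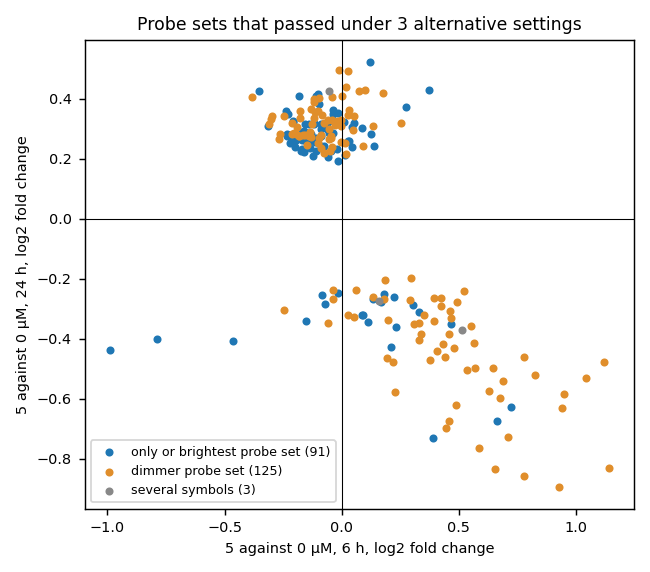
Log2 fold change of 5 against 0 µM at 24 h (vertical) and at 6 h (horizontal) for the 219 probe sets that passed under 3 alternative settings at 24 h, coloured by whether a probe set is a gene's brightest or only one, a dimmer one, or carries several symbols. Of the 82 points below 0 at 24 h, 53 were called higher at 6 h.

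In the gene lists, 0 members at their brightest probe set passed in limma, so counts at an unadjusted p under 0.05 are given as a description, against 8.92% higher and 5.37% lower of all genes. The counts were smaller without pairing, where 4.31% and 1.97% of all genes passed. There, higher and lower genes numbered 4 and 0 for mitosis, 4 and 0 for replication, 3 and 0 for ERK feedback, 5 and 0 for axon guidance, 5 and 1 for MAPK, 6 and 0 for neurite cytoskeleton and 5 and 0 for neurosecretion. They numbered 10 and 1 for histone and DNA modifiers, 4 and 2 for chromatin remodellers, 2 and 0 for glycolysis and for clock genes, 2 and 1 for chaperones of the endoplasmic reticulum, 6 and 2 for splicing and 1 and 2 for ATF4. The counts that follow are with pairing. Genes of mitosis (G2 and M phase) were 14 higher and 0 lower of 61 measured (median 0.06). TPX2, a spindle assembly factor, read 9.31, 9.27 and 9.24 untreated and 9.44, 9.56 and 9.68 at 5 µM, and FOXM1, a transcription factor of mitotic genes, 9.56, 9.53 and 9.58 against 9.77, 9.74 and 9.88, without overlap in either. Under the 3 settings, 1 of the 61 mitosis genes, TPX2, had a higher probe set and 1, NUSAP1, a lower one. NUSAP1 differed by -0.34 in its dimmer probe set, without overlap, and was not lower at its brightest in the count above. Genes of G1/S and DNA replication were 9 higher and 0 lower of 53 (median 0.08), with MCM5, of the replicative helicase, at +0.22. Of the 53 genes, MCM5, MCM7 and CHAF1A had a higher probe set that passed under the 3 settings, beside 1.04% of all genes. In all 3 it was a dimmer one, and MCM7 and CHAF1A were not among the 9 counted at the brightest. The median of both lists leaned on pair 3, at 0.15 for mitosis and 0.19 for replication, against 0.01 and -0.03 in pair 1. At 1 µM against the same untreated arrays the medians were 0.081 and 0.085, so these shifts were not particular to 5 µM. Without untreated array 3 the counts were 6 higher and 2 lower for mitosis and 2 higher and 1 lower for replication, beside 6.49% higher and 3.62% lower of all genes. The untreated array of pair 3 was also the one with the highest values of CYP26A1, CYP26B1, DHRS3 and RARB.

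Signalling and neurite lists also held more higher than lower genes. Feedback regulators of ERK signalling were 5 higher and 0 lower of 21, with a median of 0.13, and still 6 higher and 0 lower without untreated array 3. SPRY4, an inhibitor of receptor tyrosine kinase signals, read 8.94, 9.21 and 8.95 untreated and 9.35, 9.40 and 9.16 at 5 µM, and DUSP4, an ERK phosphatase, 10.68, 10.55 and 10.20 against 10.82, 10.73 and 10.37. Both were higher in 3 of 3 pairs with overlapping groups. Axon guidance genes were 11 higher and 2 lower of 51 (median 0.09), and 9 and 0 without untreated array 3. At 1 µM against untreated cells the medians were 0.06 for ERK feedback and 0.03 for axon guidance. The plexin genes PLXNC1 and PLXNA2, for semaphorin receptors, differed by +0.29 and +0.40 with overlapping groups. MAPK and neurotrophin genes were 9 higher and 3 lower of 47, with RPS6KA1, an ERK-activated kinase, at 6.60, 6.49 and 6.53 against 6.87, 6.84 and 6.70. Genes of neurite cytoskeleton were 12 higher and 4 lower of 64, and the adhesion gene NRCAM and CYFIP2, of an actin-regulating complex, differed by +0.27 and +0.25.

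Synaptic, chromatin, metabolic and clock lists held more higher than lower genes, as did all genes (8.92% and 5.37%), while splicing factors were even. Neurosecretion genes were 8 higher and 4 lower of 34. SYN1, a protein of synaptic vesicles, read 6.44, 6.27 and 6.27 untreated and 6.66, 6.48 and 6.52 at 5 µM, without overlap. Histone and DNA modifiers were 15 higher and 1 lower of 83 (median 0.02), with the histone methyltransferase gene NSD1 at 6.58, 6.80 and 6.54 against 7.06, 6.91 and 7.01. Chromatin remodellers were 11 higher and 2 lower of 58. Glycolysis and hypoxia genes were 7 higher and 2 lower of 42, among them PKM, a pyruvate kinase, at 8.46, 8.46 and 8.06 against 8.74, 8.68 and 8.46. Clock genes were 5 higher and 0 lower of 20, and PER2 read 6.50, 6.32 and 6.78 untreated, 6.73, 6.73 and 7.28 at 1 µM and 6.69, 6.49 and 7.31 at 5 µM. In PER2 the 1 µM and 5 µM arrays covered a similar range. The median of the clock list against untreated cells was 0.10 at 1 µM and 0.03 at 5 µM. Splicing factors were 7 higher and 7 lower of 96 at the brightest probe set.

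Stress and protein lists are given beside 8.92% higher and 5.37% lower of all genes. Genes under ATF4, the factor of amino acid shortage, were 2 higher and 5 lower of 42, with EPRS1, a tRNA synthetase, at 10.65, 10.67 and 10.66 against 10.17, 10.34 and 10.29. Heat shock genes were 2 higher and 2 lower of 32, and HSPB1 and CHORDC1 differed by +0.24 and -0.26. Endoplasmic reticulum chaperones were 7 higher and 1 lower of 39, although their median was -0.008 and 19 of the 39 lay above 0. Ribosomal proteins were 0 and 0 of 52, proteasome subunits 1 and 0 of 36, and genes under p53 1 and 3 of 25. Immediate early genes were 3 higher and 2 lower of 22. FOS read 7.53, 7.73 and 8.34 untreated, 7.63, 7.26 and 7.60 at 1 µM and 7.26, 7.11 and 7.55 at 5 µM, a difference of -0.56 (adjusted p = 0.17) with untreated array 3 the highest. The 3 measured Schwann and glial genes were 0 and 0. The reference genes GAPDH and HPRT1 differed by +0.02 (interval -0.08 to 0.11) and +0.05 (interval -0.07 to 0.17).

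**Figure D5:**
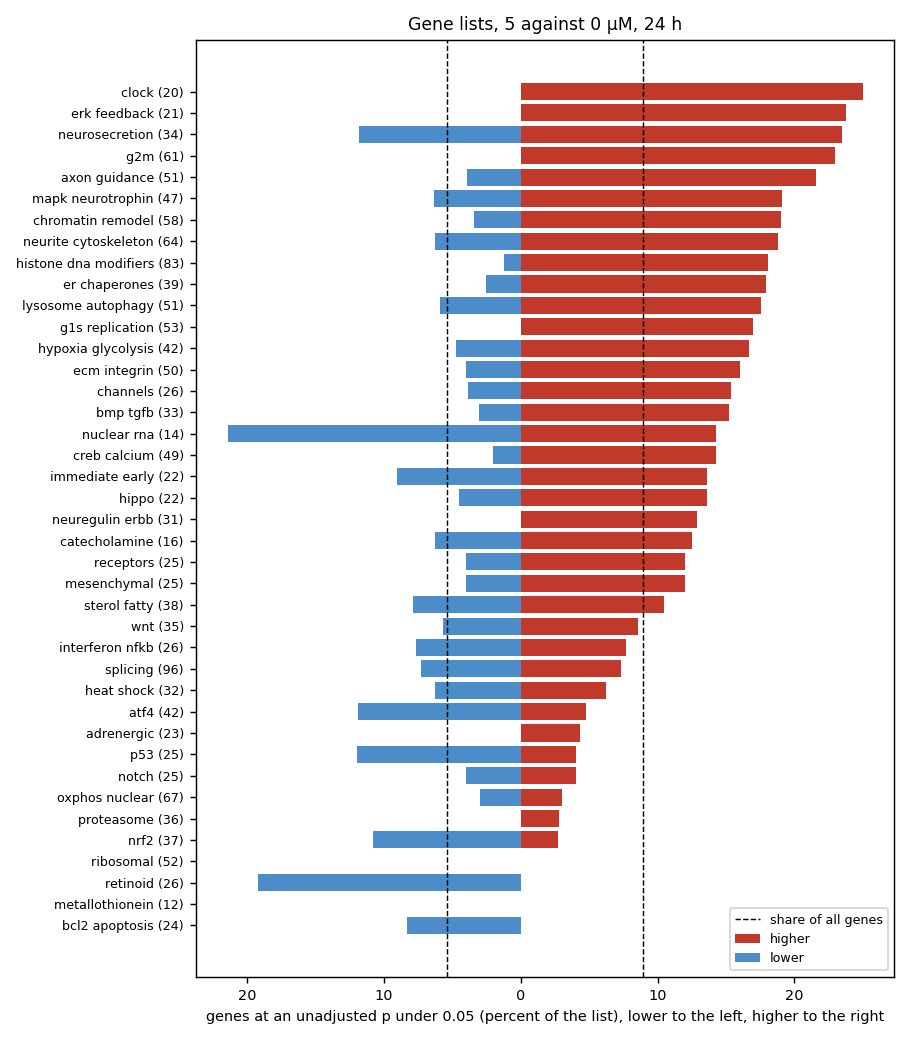
Share of each gene list, in percent, at an unadjusted p under 0.05 and higher (right) or lower (left) at 5 µM at 24 h, each gene at its brightest probe set, for lists with at least 12 measured genes (number in parentheses). Dashed lines mark the shares over all 12719 genes, 8.92% higher and 5.37% lower. Mitosis genes (g2m) were 14 of 61 higher and 0 lower.

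Measured here were 7 of the genes that the study examined by quantitative PCR. They had no call at 24 h in any of their 18 probe sets kept. At the brightest probe sets the differences were 0.24 for NFAT5, a factor of osmotic stress (interval -0.09 to 0.56), 0.14 for PPP1R9A, an actin-binding protein of neurites (interval -0.09 to 0.38), and 0.06 for ENC1, an ectoderm-neural cortex protein (interval -0.08 to 0.21). The difference was 0.03 for SEMA6D, a semaphorin (interval -0.11 to 0.17), -0.01 for ELF1, a transcription factor (interval -0.14 to 0.12), -0.01 for NRG1, a growth factor (interval -0.25 to 0.24), and -0.07 for IGF2BP3, an mRNA-binding protein (interval -0.19 to 0.06). NFAT5 read 8.91, 9.64 and 9.61 untreated, 9.24, 9.67 and 9.48 at 1 µM and 9.63, 9.58 and 9.66 at 5 µM. Untreated array 1 alone lay below the rest, and the other 2 NFAT5 probe sets differed by 0.08 and 0.17 with intervals that reached from -0.39 and -0.34 to 0.55 and 0.67. The spread between arrays thus left the NFAT5 values with wide intervals. In SEMA6D the dimmer 233882_s_at read 6.51, 6.44 and 6.70 untreated and 6.98, 6.68 and 6.90 at 5 µM, a difference of 0.30 (interval 0.06 to 0.55, adjusted p = 0.245) with overlapping groups. One dimmer probe set among the 18 separated the groups, ELF1 212420_at, at 8.20, 8.34 and 8.01 untreated and 7.74, 8.0 and 7.65 at 5 µM (difference -0.39, interval -0.63 to -0.14, adjusted p = 0.19). At 6 h the same probe set read 7.58, 7.03 and 7.36 untreated and 8.20, 8.10 and 8.08 at 5 µM.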

How the data were processed

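The 18 samples were hybridised to Affymetrix U133 Plus 2.0 arrays. The values used are log2 signals that the authors deposited after background correction, normalization and median polish (RMA, per the labels and the methods), with 6 h and 24 h processed separately. The table held 54675 probe sets, of which 41097 had 1 gene symbol, 1801 several and 11777 none in the platform annotation. Samples were grouped by the dose and time in their titles, since the characteristics of the 5 µM samples also carry the words of an untreated control.

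Probe sets with a symbol and a mean over the 9 arrays of 24 h above log2(40) were fitted with limma 3.58.1 (R 4.3.3), with the dose and the replicate number as terms and Benjamini-Hochberg adjustment over all of them. The methods do not name a pairing. It was checked here on deviations from the group means. Arrays of 24 h with the same number correlated at 0.424 to 0.733 (9 pairs), and those with different numbers at -0.575 to 0.165. The 24 h effect minus the 6 h effect was tested in 1 fit of all 18 arrays. Lists were described by counts, each gene at its brightest probe set. A gene was named if called, if among the 2 smallest p-values of a list, if among the 12 largest shifts between times, or if it was a marker or a gene of the study. The members and lists were chosen with earlier results of these data known. Genes taken from the 3 alternative settings were chosen after seeing the data. Array weights were estimated with a convergence that stopped early. The fit was tested on simulated data. Intervals are 95% intervals from limma, and the number of arrays limits their precision. Promoter windows came from RefSeq.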

Additional observations from a re-analysis of the deposited data

Results flagged for a closer look

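The cocaine effect at 24 h differed from that at 6 h in 3535 probe sets, by limma's test of the difference at an adjusted p under 0.10. In SCAMP1 the difference was -1.44 for 1552978_a_at, -1.64 for 206667_s_at, -1.14 for 206668_s_at and -0.807 for 212417_at on the log2 scale, each lower at 24 h than at 6 h. Among the genes the study examined by quantitative PCR, it was -1.19 for ELF1 212420_at, -0.689 for ENC1 201340_s_at, -0.961 and -0.203 for IGF2BP3 216493_s_at and 203819_s_at, and -0.85 and -0.404 for PPP1R9A 221088_s_at and 233985_x_at. SEMA6D 226492_at had the opposite sign, 0.748. Only probe sets called in this test are listed, and NFAT5 and NRG1 had none. The ACTB 3' to 5' difference between 5 µM and untreated cells also turned from -0.336 at 6 h to 0.296 at 24 h. For the spiked-in control bioD relative to cre, the difference was -0.495 at 6 h and 0.058 at 24 h. The part of both measures in these differences was not tested.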

How the results depend on the processing

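With the replicate block removed, 3 probe sets were called in place of 2. Fits of the 6 arrays alone gave 0 calls, with and without the block, and so did 1 probe set per gene. The filter at log2(100) gave 439 (277 higher), the intensity trend 514 (283 higher) and array weights 328 (198 higher). No signal filter, quantile normalization, centring, unnamed probe sets and an adjusted p under 0.05 gave 2 each. Leaving out arrays gave 0 to 29 calls, 29 without untreated replicate 1, and leaving out a whole replicate number 0 to 1. Without untreated replicate 3 and without the block, chosen after seeing the data, there were 0. With the block removed the difference between times had 943 calls, and at an adjusted p under 0.05 it had 2051. Without 1 array it had 2225 to 2867, lowest without untreated replicate 2. Centring the arrays gave 1690 higher and 1683 lower there, in place of 2059 and 1476. List members called went from 0 to 43 with the trend, 31 with the stricter filter and 16 with weights, all chosen after seeing the data. The cause was not tested. With 3 arrays a group, no exact test of 1 measure can reach p under 0.1.

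Of the named genes, 18 probe sets, all with a difference whose interval held 0, changed sign when 1 array was left out. On the log2 scale CALD1 212077_at ran from -0.076 to 0.078, CBX5 226085_at from -0.0093 to 0.084, CDC42 208728_s_at from -0.0029 to 0.071, ELF1 212418_at from -0.068 to 0.036, ENC1 201340_s_at from -0.065 to 0.19 and HPRT1 202854_at from -0.0024 to 0.077. IGF2BP3 203820_s_at ran from -0.094 to 0.054, NFAT5 208003_s_at from -0.18 to 0.30, NFAT5 215092_s_at from -0.025 to 0.47, NRG1 206343_s_at from -0.077 to 0.13, NRG1 208232_x_at from -0.35 to 0.025 and PPP1R9A 221088_s_at from -0.13 to 0.046. PPP1R9A 233985_x_at ran from -0.092 to 0.14, PTPRH 208300_at from -0.24 to 0.067, SEMA6D 226492_at from -0.039 to 0.0698, SEMA6D 233801_s_at from -0.11 to 0.13, SF3B1 211185_s_at from -0.069 to 0.028 and SMAD5 225219_at from -0.022 to 0.022. SMAD5 225219_at also changed sign with centring (-0.0049). Both SCAMP1 calls were lost in the 6-array fit and in most fits without 1 array, while their differences kept their sign throughout.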
